A study of Mus musculus with 31 samples.

Results

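The comparison described here sets the 7 hypothalamus libraries of daughters against the 8 of sons of mouse dams fed an obesogenic diet, and reads it on the autosomes, chromosomes 1 to 19. The libraries were chosen by the sex and maternal diet that the labels give, and they are 15 of the 31 libraries of the series. Of the 54532 genes in the counts, 50225 lie on chromosomes 1 to 19, and 16886 of these had enough reads to be tested. All mice were C57BL/6J, an inbred strain. Their dams ate either a control diet or an obesogenic diet high in fat and sugar through pregnancy and lactation. Every offspring, those of control dams included, was weaned to chow at day 21, was switched to the obesogenic diet at 3 months of age for 4 weeks, and was studied at 4 months. There is therefore no group of either sex that was never given the obesogenic diet. The 8 daughters and 8 sons of control dams are used only as a second look at the same sex difference. Neither animals nor litters are named in the labels. The p-values therefore measure the spread between these libraries, some of which may come from littermates. Libraries are called daughter 1 to 7 and son 1 to 8 in accession order, which is a name and not an order.

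The hypothalamus sets feeding, body temperature, stress and reproduction, and several of its cell groups differ between the sexes. Some genes on the X and Y chromosomes differ by sex in many tissues because of how many copies are read. Autosomal genes are present in equal copy number in both sexes, so a difference there is usually discussed in terms of gonadal hormones or of regulators encoded on the sex chromosomes. Oestrogen acts through nuclear receptors, of which Esr1 encodes the alpha and Esr2 the beta form. These receptors bind DNA as pairs at inverted copies of the motif GGTCA. Oxytocin and vasopressin are made by neighbouring genes and released by large neurons of the paraventricular and supraoptic nuclei.

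The 15 libraries matched their labels for sex. Daughters had 205 to 716 CPM (counts-per-million) of Xist and 0 reads of 4 Y-linked genes. Sons had at most 0.0562 CPM of Xist and 122 to 157 CPM of the Y-linked genes together. Totals were 24627042 to 34232678 read pairs in daughters and 26128150 to 36283599 in sons. Daughter 3 stood apart: 18513 genes had reads in it, against 21324 to 22918 in the other daughters and 21311 to 22467 in sons, and its median correlation with the other libraries was 0.936, against 0.971 to 0.978. Main results are given with and without it, and some genes and lists with all 15 libraries only. Peptide genes of the hypothalamus were read in every library, with Pmch at 451 to 1183 CPM and Hcrt at 18.6 to 169 CPM over all 15 libraries. Dissections still differed. The summed level of the 9 tested pituitary markers (of 14 listed) ran from 14.2 to 1228 CPM in daughters, with daughter 3 highest. In sons it ran from 28 to 378 CPM. The pituitary hormone gene Gh was at 0 CPM in daughters 4 and 5, and Prl was at 0 CPM in daughter 5.

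No autosomal gene passed the test in daughters against sons of obesogenic dams. With edgeR's quasi-likelihood test and Benjamini-Hochberg adjustment over the 17526 genes tested on all chromosomes, 12 genes had an adjusted p under 0.05; 6 were on X, 6 on Y and 0 on chromosomes 1 to 19 (0% of 16886). The count of autosomal calls was 10 with DESeq2 and 3 with limma voom, so the count depended on the tool. At an unadjusted p under 0.05 there were 1084 autosomal genes (6.42%), of which 652 (3.86%) were higher in daughters and 432 (2.56%) were lower. Over all autosomal genes tested, 50.1% were higher in daughters, and the median log2 fold change was 0.000384. The fold changes were estimated with a median standard error (SE) of 0.12 on the log2 scale and a median 95% interval of 0.25 to either side. Only 161 genes (0.953%) had an estimate beyond a 2-fold difference. By chromosome, the share with an unadjusted p under 0.05 ran from 4.38% on chromosome 19 to 7.58% on chromosome 12.

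The adjusted p of the leading autosomal genes leans on the sex-linked calls. Adjusted over all chromosomes, the smallest autosomal value was 0.0632, for Col4a1. Adjusted over the 16886 autosomal genes alone it was 0.774. The named genes below were taken by rank, the 5 of smallest p in each direction, and none of them passed.

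The genes that led in the direction of daughters encode a basement membrane collagen, 2 proteins of the complement system, an oestrogen receptor and a protease. Col4a1 encodes the alpha-1 chain of type IV collagen, the sheet-forming collagen of vessel walls (chromosome 8, 11198423 to 11312826, minus strand, mm10). Its level was 32.7 CPM in the lowest daughter, 41.3 at the median and 43.6 in the highest, against 23.8, 29.3 and 33.6 CPM in sons. Of the 7 daughters, 6 lay above every son, and daughter 5 lay within the sons' range. The means were 39.2 ± 4.12 (SD, n = 7) and 29.3 ± 3.10 CPM (SD, n = 8), a log2 fold change of 0.42 ± 0.083 (SE; edgeR adjusted p = 0.0632). Without daughter 5 the adjusted p from edgeR was 0.0232, and without daughter 3 it was 0.104, with a log2 fold change of 0.40.

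Cd59a encodes a membrane protein that blocks assembly of the complement attack complex (chromosome 2, 104095801 to 104115354, plus strand). Daughters ranged from 21.1 to 28.1 CPM with a median of 25.3, and sons from 17.1 to 20.2 CPM with a median of 19.4. All 7 daughters lay above all 8 sons. The means of 24.9 ± 2.90 and 19 ± 1.10 CPM gave a log2 fold change of 0.39 ± 0.083 (edgeR adjusted p = 0.128), and 0.39 again without daughter 3 (0.118). C4b encodes complement component 4 (chromosome 17), which has a near-identical neighbour, so its level is uncertain. It stood at 60.7, 82.4 and 97.8 CPM in the lowest, median and highest daughter, against 42.8, 60.3 and 69.6 CPM in sons. Again 6 of 7 daughters were above every son. The log2 fold change was 0.51 ± 0.12 (edgeR adjusted p = 0.307) and 0.49 without daughter 3.

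Esr1, the oestrogen receptor alpha gene on chromosome 10 (4611593 to 5005614, plus strand), had a median of 28.3 CPM in daughters and 16 in sons. Daughters ranged from 18.3 to 37.1 CPM and sons from 12 to 22.6 CPM. In 6 of 7 daughters the level was above that of every son, and daughter 1 fell among the sons. The means of 27 ± 6.07 and 17.1 ± 4.08 CPM gave a log2 fold change of 0.66 ± 0.15 (95% interval 0.35 to 0.97; edgeR adjusted p = 0.257). It was 0.65 without daughter 3 (0.432). Without daughter 1 and son 1, whose titles hold 2 numbers, it was 0.80, with an adjusted p of 0.032 from edgeR. Plat, which encodes tissue plasminogen activator, a protease of clot breakdown that is also secreted by neurons, was at 41.7 ± 4.20 CPM in daughters and 33.4 ± 2.78 in sons. Its log2 fold change was 0.32 ± 0.076, and 0.28 without daughter 3, its highest library at 48.1 CPM.

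**Figure D1:**
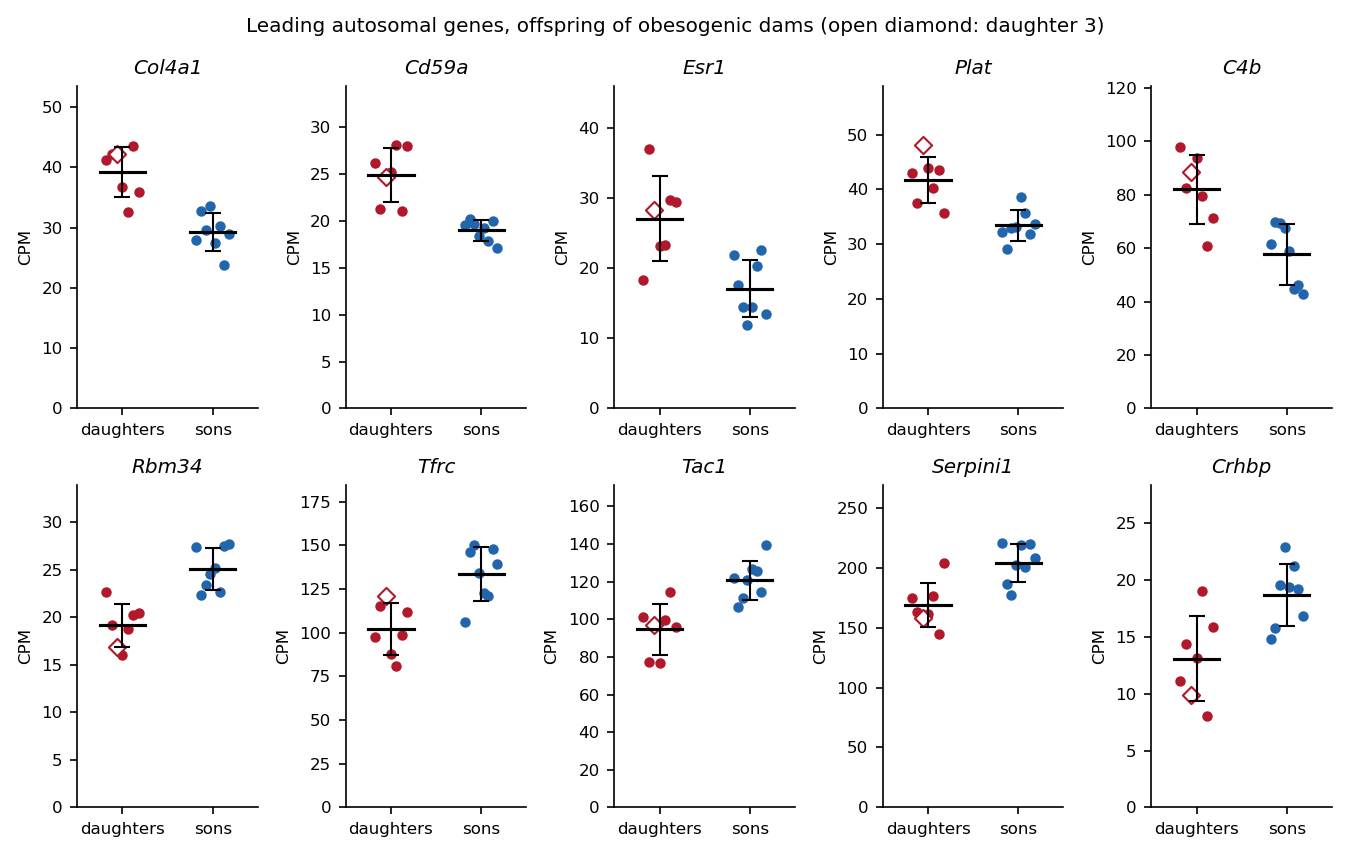
Level in CPM (y axis, linear from 0) of the 5 autosomal genes of smallest p in each direction, by library, in 7 daughters (red) and 8 sons (blue) of obesogenic dams; lines are group means, bars are 1 SD, and the open diamond is daughter 3. Cd59a is the 1 gene of the 10 whose groups do not overlap, and daughter 3 lies inside the range of the other daughters in every panel except Plat and Tfrc, where it is the highest.

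The genes that led in the direction of sons encode an iron carrier receptor, neuropeptide system proteins and a protease inhibitor. Tfrc encodes the transferrin receptor, through which cells take up iron. It was at 81.2, 98.7 and 121 CPM in the lowest, median and highest daughter, against 106, 137 and 150 CPM in sons, so the ranges overlapped at the lowest son, son 1. All 7 daughters were below the sons' mean. The means of 102 ± 14.8 and 134 ± 15.5 CPM gave a log2 fold change of -0.39 ± 0.091 (edgeR adjusted p = 0.299). Without daughter 3 it was -0.43, and its adjusted p of 0.0996 from edgeR was then the smallest of all autosomal genes, a value shared with Lamp5.

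Tac1 encodes the precursor of substance P and neurokinin A. Daughters ranged from 76.7 to 114 CPM (median 97.1) and sons from 107 to 140 CPM (median 121), and 6 of 7 daughters were below every son. On the log2 scale the difference was -0.35 ± 0.083, with an adjusted p of 0.301 in edgeR, and -0.36 without daughter 3. Rbm34, a gene of an RNA-binding protein, was at 19.2 ± 2.26 CPM in daughters and 25.1 ± 2.22 in sons, a log2 fold change of -0.39 ± 0.088. Serpini1 encodes neuroserpin, an inhibitor of tissue plasminogen activator, so this gene and Plat encode an inhibitor and its target protease. Serpini1 was at 169 ± 18.7 CPM in daughters and 204 ± 16.1 in sons (-0.27 ± 0.073 on the log2 scale), the opposite direction to Plat. Crhbp, which encodes a protein that binds corticotropin-releasing hormone, was at 13.1 ± 3.74 and 18.7 ± 2.74 CPM (-0.52 ± 0.15). None of the 10 genes changed sign without daughter 3, and each kept its direction in all 28 alternative fits in which it was estimated.

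Counted over all 16886 autosomal genes, complete separation of the libraries was rare. In 3 genes (0.0178%) every daughter lay above every son: Cd59a, Jmjd6 and Kazn. In 2 (0.0118%) every daughter lay below, both predicted models without a described function, Gm45716 and Gm38058. These names other than Cd59a were picked after their values were seen. Jmjd6, which encodes a lysyl hydroxylase of the nucleus, was at 26.5 ± 2.66 CPM in daughters and 21.4 ± 1.71 in sons. Kazn, which encodes a protein of cell junctions, was at 127 ± 13.2 and 112 ± 1.67 CPM. Without daughter 3 the counts were 7 above (0.0415%) and 6 below (0.0355%), and all of the first 5 stayed among them.

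Oxt, which encodes oxytocin, had the largest estimate among the peptide genes that were followed by name. It lies on chromosome 2 (130576173 to 130577054, plus strand), and Avp, the vasopressin gene, faces it on the minus strand (130580620 to 130582554). The 250 bases before the start of each are printed because the oxytocin promoter is a textbook target of nuclear receptors and the vasopressin promoter is its neighbour. The sequences are RefSeq's on GRCm38.p6, at chr2:130575919-130576168 (plus strand) for Oxt and chr2:130582589-130582838 (minus strand) for Avp, each 5′ to 3′ along its gene. Capitals mark every copy of TGACC or of GGTCA, which is its reverse complement.
Oxt: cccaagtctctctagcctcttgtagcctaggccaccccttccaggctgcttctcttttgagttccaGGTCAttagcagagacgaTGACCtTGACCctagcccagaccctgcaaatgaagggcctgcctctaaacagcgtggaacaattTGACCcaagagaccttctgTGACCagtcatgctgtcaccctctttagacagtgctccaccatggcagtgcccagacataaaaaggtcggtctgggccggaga
Avp: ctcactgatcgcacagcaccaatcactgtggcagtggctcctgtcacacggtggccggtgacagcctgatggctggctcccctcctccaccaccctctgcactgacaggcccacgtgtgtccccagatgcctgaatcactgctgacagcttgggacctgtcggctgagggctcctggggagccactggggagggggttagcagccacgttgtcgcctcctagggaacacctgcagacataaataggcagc
The Oxt window held 5 copies, which begin 184, 166, 160, 102 and 83 bases before the start, and the Avp window held 0. Of 32851 promoters of the same length, searched on both strands, 11577 (35.2%) held at least 1 copy and 14 (0.0426%) held 5 or more. The copies 166 and 160 bases before the Oxt start are the pair TGACC and TGACC with a single T between them, and such a pair, on either strand, stood in 3 promoters (0.00913%). The pair was counted in the form that the Oxt window holds, and the cut of 5 copies is the Oxt window's own count. Both counts are therefore descriptions and not tests. The full inverted element, which is GGTCA followed by any 3 bases and TGACC, stood in 21 promoters (0.0639%) and in 0 of the windows of the named genes. Of the 28 genes named by rank or by name, 24 were in the table and 12 of them held at least 1 copy in a window. Some genes have several starts, so these 24 genes have 31 windows, of which 14 held a copy, and no window besides that of Oxt held more than 2. A match is only a run of letters, and factor binding was not measured.

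Oxt was at 85.4, 113 and 161 CPM in the lowest, median and highest daughter, and at 23.8, 64.1 and 88.4 CPM in sons. All 7 daughters were above the sons' mean, 6 of them were above every son, and 7 of 8 sons were below every daughter. The means were 122 ± 26.8 (SD, n = 7) and 61.6 ± 22.1 CPM (SD, n = 8), and the log2 fold change was 0.98 ± 0.23 (95% interval 0.49 to 1.48). The unadjusted p was 0.00075 and the adjusted p was 0.453 in edgeR; limma voom gave an adjusted p of 0.04 and DESeq2 did not call the gene. Without daughter 3 the log2 fold change was 1.0 (edgeR adjusted p = 0.543). Avp ran from 79.5 to 295 CPM in daughters and from 45.4 to 182 CPM in sons, with means of 184 ± 68.1 and 125 ± 39.4 CPM. Its log2 fold change was 0.57 ± 0.28, with an interval from -0.03 to 1.16 that includes no difference. Per kilobase of exon, Avp was above Oxt in both sexes. In FPKM (CPM divided by exonic length in kilobases) they were at 320 and 227 in daughters and 216 and 115 in sons.

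Levels of some arcuate nucleus peptide genes differed among libraries that also differed in pituitary RNA. Daughters 1, 4 and 5 had the lowest Npy (16.1, 20.1 and 13.5 CPM, against 39.7 to 71.4 in the other daughters) and the lowest Agrp (5.69, 6.24 and 4.02 CPM, against 9.55 to 22.2). Both encode feeding-stimulating peptides of that nucleus. The same 3 daughters had the lowest Prl, at 0.222, 3.45 and 0 CPM against 147 to 797 CPM in the other daughters, and the lowest Oxt. Son 1, with Prl at 0.363 CPM against 20.1 to 68.5 CPM in the other sons, had the lowest Agrp of the sons, at 6.50 CPM, but its Npy of 38.7 CPM was above that of son 5, at 28.9 CPM. Cartpt, another arcuate peptide gene, did not follow this order, being highest among daughters in daughter 5, at 150.3 CPM, and among sons in son 1, at 139.7 CPM. The part of the dissection in the sex differences was not tested.

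**Figure D2:**
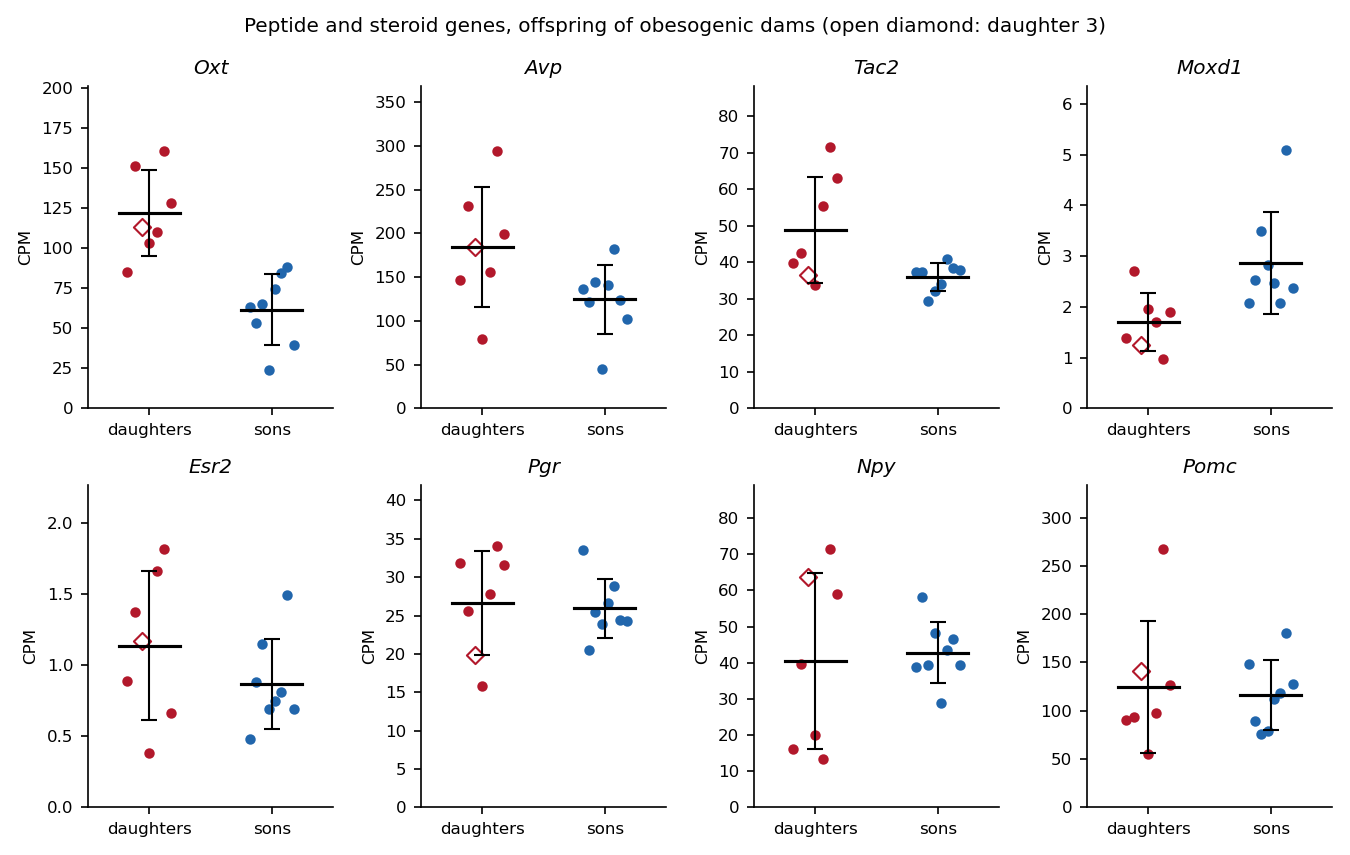
Level in CPM (y axis, linear from 0) of 8 peptide and steroid-related genes by library in 7 daughters (red) and 8 sons (blue) of obesogenic dams; lines are group means, bars are 1 SD, and the open diamond is daughter 3. Oxt separates the groups except for the lowest daughter, at 85.4 CPM, and the highest son, at 88.4 CPM, while Npy in daughters has 3 libraries below every son, 3 above every son and 1 within the range of the sons.

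Among sex steroid receptors and enzymes, directions were divided. Of 18 autosomal members tested, 9 were higher and 9 lower in daughters, with a median log2 fold change of 0.02; 2 had an unadjusted p under 0.05 in the higher direction, against 3.86% of all autosomal genes, and 1 in the lower, against 2.56%. Cyp19a1, the aromatase that makes oestradiol, and Kiss1, which encodes kisspeptin, were below the read minimum. Esr2 was at 1.14 ± 0.52 CPM in daughters and 0.87 ± 0.32 in sons, a difference within its interval of -0.36 to 1.12. The progesterone receptor gene Pgr, a classic target of oestrogen, was at 26.6 ± 6.75 and 25.9 ± 3.86 CPM (0.04 ± 0.14). Greb1, another oestrogen target, was at 4.70 ± 2.76 and 4.77 ± 1.55 CPM. Prlr, which encodes the prolactin receptor, had a log2 fold change of 0.16 ± 0.15 and Oxtr, the oxytocin receptor gene, of 0.11 ± 0.16.

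A list of 23 tested genes that respond to oestrogen in hypothalamus was split, with 12 higher and 11 lower in daughters and a median of 0.01. Tac2, which encodes neurokinin B of the arcuate nucleus, was at 48.9 ± 14.5 CPM in daughters and 35.9 ± 3.74 in sons, with 6 of 7 daughters above the sons' mean (0.44 ± 0.14; edgeR adjusted p = 0.707). Moxd1, a marker of a male-biased preoptic nucleus, was at 1.70 ± 0.57 and 2.87 ± 1.01 CPM, with 6 of 7 daughters below every son (-0.75 ± 0.25; 0.747). Cckar, which encodes a cholecystokinin receptor, was at 11.7 ± 2.54 and 9.17 ± 2.57 CPM (0.35 ± 0.17). Gal, the galanin gene, and Ecel1, a gene of a neuronal membrane peptidase, had log2 fold changes of -0.05 ± 0.11 and 0.01 ± 0.12. Without daughter 3 the log2 fold changes were 0.50 for Tac2, -0.69 for Moxd1 and 0.27 for Cckar. Cckar was highest in that library, at 15.5 CPM.

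Of the peptide genes of feeding followed by name, Npy, Agrp, Pomc and Cartpt had intervals that include no difference. Npy had a log2 fold change of -0.08 ± 0.35 and Agrp of -0.04 ± 0.33. Pomc, whose product yields melanocortins that suppress feeding, was at 125 ± 68.7 and 116 ± 36.1 CPM (0.10 ± 0.30). Cartpt, the gene of another feeding-suppressing peptide, was at 120 ± 22.4 and 116 ± 16.3 CPM (0.04 ± 0.11). The intervals allow differences of -0.82 to 0.66 for Npy, -0.75 to 0.66 for Agrp, -0.54 to 0.73 for Pomc and -0.18 to 0.26 for Cartpt. Without daughter 3 the log2 fold changes were -0.22 for Npy, -0.30 for Agrp, 0.07 for Pomc and 0.09 for Cartpt. With all 15 libraries, 6 of 16 feeding-stimulating genes were higher and 10 lower in daughters (median -0.04). Without daughter 3 the counts were 5 and 11 (median -0.03). Of 19 feeding-suppressing genes, Oxt among them, 13 were higher and 6 lower (median 0.04; 11, 8 and 0.08 without daughter 3). In that list Ucn3, which encodes urocortin 3, a peptide of the corticotropin-releasing hormone family, was at 1.63 ± 1.23 CPM in daughters and 0.56 ± 0.44 in sons, with 4 of 7 daughters above every son (1.53 ± 0.55; edgeR adjusted p = 0.761). Daughter 3 was its lowest daughter, at 0.16 CPM, and the log2 fold change was 1.73 without it (adjusted p = 0.557 in edgeR).

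Gene groups were compared with the background of all autosomal genes, where 50.1% were higher in daughters, the median was 0.000384, and an unadjusted p under 0.05 was found in 3.86% in the higher and 2.56% in the lower direction. No member of any of the 40 lists passed the test, with or without daughter 3, so the counts below are of directions and of unadjusted p-values. Genes of a list are not independent of each other. In bulk tissue, fewer cells of a type and less RNA per cell cannot be told apart.

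The inflammatory list had the highest median. All 17 of its tested members (of 23) were higher in daughters, with a median of 0.34, and 4 had an unadjusted p under 0.05, against 3.86% of all autosomal genes in that direction. Without daughter 3, where 50.5% of all autosomal genes were higher, again all 17 were, with a median of 0.37. The 4 members of smallest p were C4b, Socs3, Nfkbia and C3. Socs3, an inhibitor of cytokine and leptin signalling, was at 4.27 ± 1.49 CPM in daughters and 2.88 ± 0.61 in sons (0.57 ± 0.21). C3, the central component of complement, was at 6.89 ± 1.066 and 5.44 ± 1.22 CPM (0.34 ± 0.16), and all 7 daughters were above the sons' mean. Microglia markers were higher in 6 of 18 cases with a median of -0.07 (8 of 18 and -0.03 without daughter 3), and their summed level was 610 to 863 CPM in daughters and 611 to 888 CPM in sons. The astrocyte list was even, with 9 of 17 higher and a median of 0.00, although Gfap, the intermediate filament gene of reactive astrocytes, was at 423 ± 102 CPM in daughters and 341 ± 79.0 in sons (0.31 ± 0.15). Interferon response genes were higher in 16 of 25 cases (median 0.08), and in 20 of 25 (median 0.20) without daughter 3, which had the lowest sum of that list of all 15 libraries at 346 CPM.

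Collagens and matrix genes were also mostly higher in daughters, in 19 of 23 cases with a median of 0.26 (0.23 without daughter 3), and 6 had an unadjusted p under 0.05. Col4a2, which pairs with Col4a1 in type IV collagen and shares its promoter region on chromosome 8, was at 60.3 ± 17 CPM in daughters and 45.8 ± 7.75 in sons (0.40 ± 0.14). It was highest in daughter 3 at 91.6 CPM, and its log2 fold change was 0.27 without that library. Col1a2, which encodes a fibrillar collagen of fibroblasts, was at 21.1 ± 4.77 and 15.7 ± 2.48 CPM (0.43 ± 0.13). Of markers of meningeal fibroblasts, 16 of 18 were higher, with a median of 0.32 (0.35 without daughter 3), and their summed level was 363 to 1181 CPM in daughters and 335 to 643 CPM in sons. The median of that sum was the other way, at 491 CPM in daughters and 572 CPM in sons. Slc6a13, a transporter gene of these cells, was at 6.03 ± 3.26 and 3.53 ± 1.10 CPM. Endothelial markers were higher in 11 of 15 cases with a median of 0.09, and mural cell markers in 5 of 12 with a median of -0.02. The part of meningeal tissue in the collagen difference was not tested.

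Cilium markers of the ependyma, the cell layer that lines the ventricles, were higher in daughters in 16 of 17 cases with a median of 0.33, and 7 had an unadjusted p under 0.05. Daughter 3 carried much of this. Its summed level was 394 CPM, the highest of all 15 libraries, against 161 to 252.5 CPM in sons. Without it the median was 0.18, still with 16 of 17 higher and 5 under the unadjusted threshold. Cfap44, a gene of the ciliary axoneme, was at 40.3 CPM in daughter 3, and its log2 fold change was 0.84 ± 0.26 with that library and 0.51 without it. Spag17, another axoneme gene, was at 4.72 ± 2.09 CPM in daughters and 2.51 ± 0.89 in sons (0.91 ± 0.25, and 0.69 without daughter 3).

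Cholesterol synthesis genes were mostly lower in daughters. Of 22 members, 21 were lower in daughters, with a median of -0.16 both with and without daughter 3, and 8 had an unadjusted p under 0.05 (9 without it). Hsd17b7, an enzyme gene of the pathway, was at 12.8 ± 1.068 CPM in daughters and 16.3 ± 2.42 in sons, and 5 of 7 daughters were below every son (-0.35 ± 0.10). Msmo1 had a log2 fold change of -0.21 ± 0.072 and Mvk, which encodes mevalonate kinase, of -0.31 ± 0.10, and in both all 7 daughters were below the sons' mean. Oligodendrocytes, which make cholesterol for myelin, had markers lower in 13 of 16 cases with a median of -0.13 (11 of 16 and -0.09 without daughter 3). Their summed level was 4191 to 7241 CPM in daughters and 4080 to 7006 CPM in sons, and their part in the cholesterol list was not tested.

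Genes of the ribosome, the respiratory chain and the proteasome were nearly all lower in daughters, by small amounts. The counts were 76 of 78 for cytosolic ribosomal proteins (median -0.14), 33 of 35 for complex I subunits (-0.11), 38 of 38 for complexes II to V (-0.12) and 29 of 31 for the proteasome (-0.10). Daughter 3 had the lowest summed level of all 15 libraries in each of the 4 lists, for example 12820 CPM of ribosomal protein genes against 16400 to 25210 CPM in sons. Without it the medians were -0.06, -0.04, -0.06 and -0.07. In control offspring the direction of these lists turned with the libraries used. The medians were -0.27, -0.23, -0.17 and -0.15 in a fit of the 29 libraries that match their sex label, and 0.03, 0.02, 0.04 and 0.0017 in a fit of 26 that also leaves out 3 libraries that stand apart, daughter 3 among them. Ribosomal protein genes have many near-identical pseudogenes, so their counts are uncertain.

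Lists of neuronal genes differed in direction. Of 13 neuron markers 12 were lower in daughters (median -0.07), led by Snap25, a gene of the vesicle release machinery, at 1243 ± 92.3 and 1459 ± 124 CPM with all 7 daughters below the sons' mean (-0.23 ± 0.069). GABA synapse genes were lower in 13 of 18 cases (median -0.08), glutamate synapse genes were divided 11 to 11 (median 0.0021), and other neuropeptide genes were higher in 14 of 23 (median 0.06). Gabra5, which encodes the alpha-5 subunit of the GABA-A receptor, was at 74.3 ± 12.6 CPM in daughters and 94.7 ± 13.8 in sons (-0.35 ± 0.10; -0.39 without daughter 3). Immediate early genes, which neuronal activity and handling induce, were higher in 18 of 23 cases (median 0.17; 0.25 without daughter 3), yet 0 of them had an unadjusted p under 0.05 in that direction and 2 had one in the other (2 and 1 without daughter 3). Unfolded protein response genes were higher in 19 of 24 (median 0.10), with Creld2 at 23.9 ± 4.07 and 18.8 ± 2.36 CPM (0.35 ± 0.11) and Pdia4 at 62.9 ± 4.73 and 54.5 ± 4.48 CPM (0.21 ± 0.067). Heat shock genes were higher in 15 of 20 (median 0.07) with 2 under the unadjusted threshold in that direction, and in 17 of 20 (median 0.12) with 5 without daughter 3. The 22 autosomal factors of X inactivation were divided 13 higher to 9 lower (median 0.03), and 10 to 12 (median -0.0064) without daughter 3, with Ring1, a Polycomb subunit gene, at 39.2 ± 7.54 and 30.5 ± 4.03 CPM (0.36 ± 0.11; 0.27 without daughter 3, its highest library at 52.6 CPM).

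**Figure D3:**
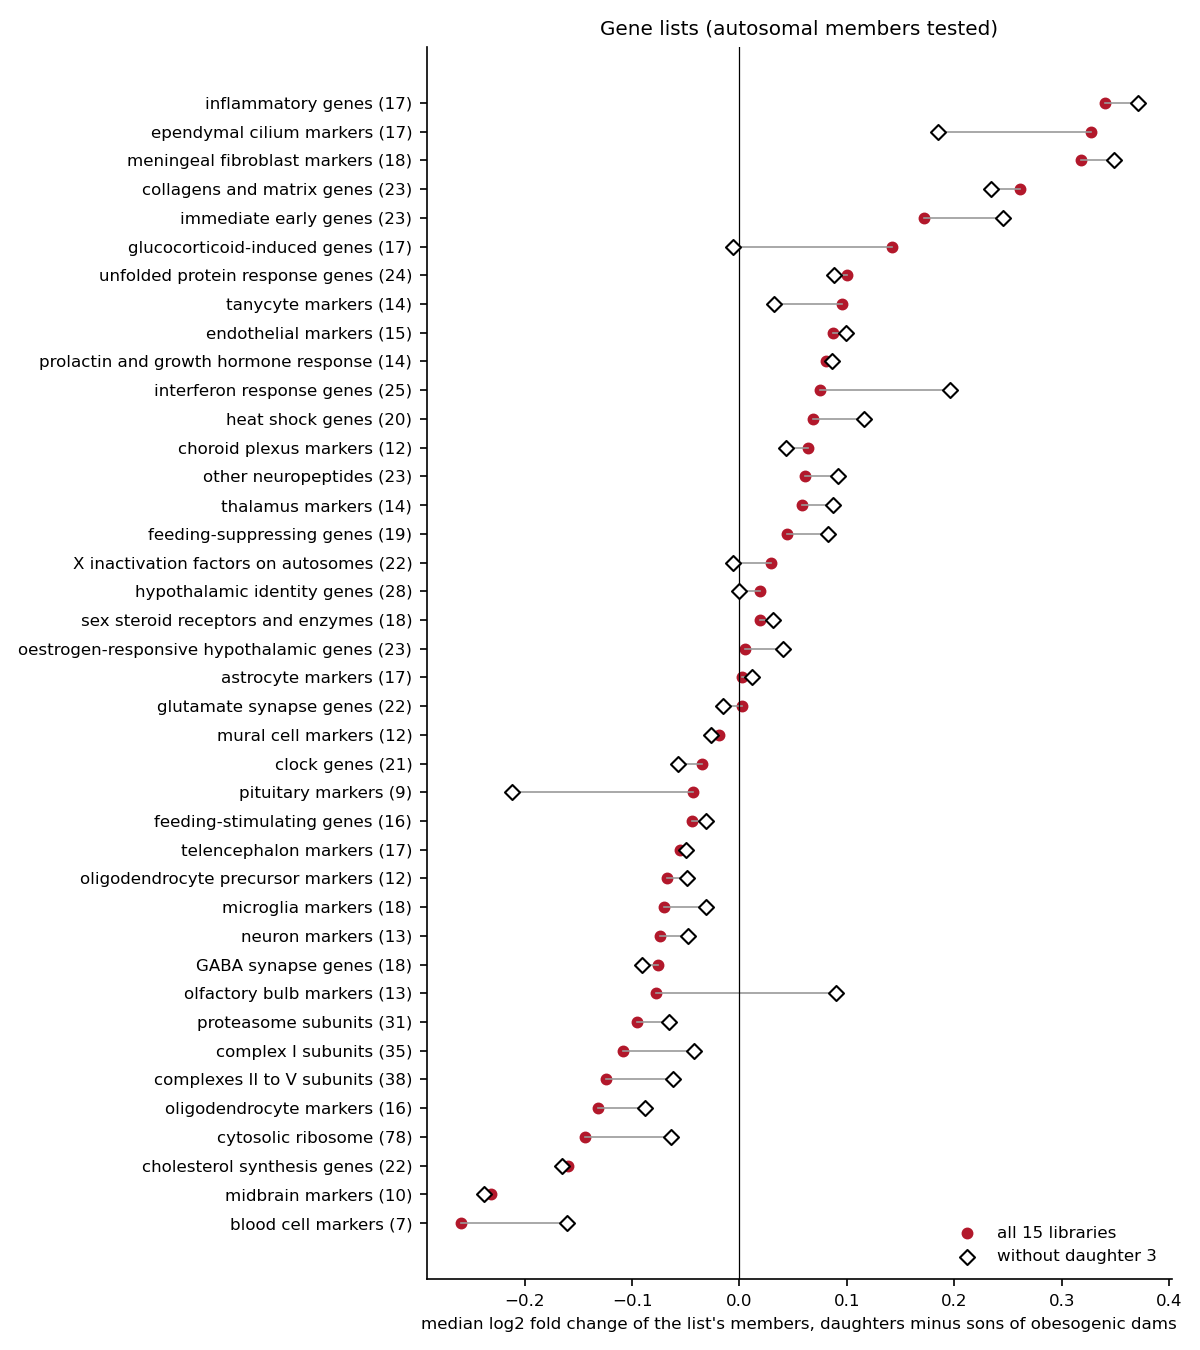
Median log2 fold change, daughters minus sons of obesogenic dams (x axis), of the tested autosomal members of each of 40 gene lists (y axis, number of members in parentheses), with all 15 libraries (red circles) and without daughter 3 (open diamonds). The inflammatory, fibroblast and collagen lists stay above 0.2 and the cholesterol list stays at -0.16 either way, while the ependymal, ribosomal, glucocorticoid, interferon, pituitary and olfactory bulb medians shift with that library.

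Leaving out daughter 3 changed which genes came near the threshold more than how many. Then 17078 autosomal genes were tested and 0 passed (0%) in edgeR; 12 did with DESeq2 and 0 with limma voom. At an unadjusted p under 0.05 there were 930 genes (5.45%), 509 higher (2.98%) and 421 lower (2.47%). Of these, 618 were shared with the comparison of all 15, which is 57.0% of the 1084 and 66.5% of the 930. Lamp5, which encodes a vesicle membrane protein of subsets of GABA neurons, showed the shift most plainly. It was at 23.2 CPM in daughter 3, above every son, while the mean of all 7 daughters was 15 ± 4.03 CPM, against 19.4 ± 2.41 in sons. With daughter 3 the log2 fold change was -0.38 ± 0.13, with an adjusted p of 0.747 in edgeR, and without it -0.51 with an adjusted p of 0.0996. Tmem161b had log2 fold changes of -0.23 and -0.37. Cubn, which encodes the endocytic receptor cubilin, was at 2.18 ± 0.66 and 1.17 ± 0.33 CPM, with 0.90 and 0.99.

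**Figure D4:**
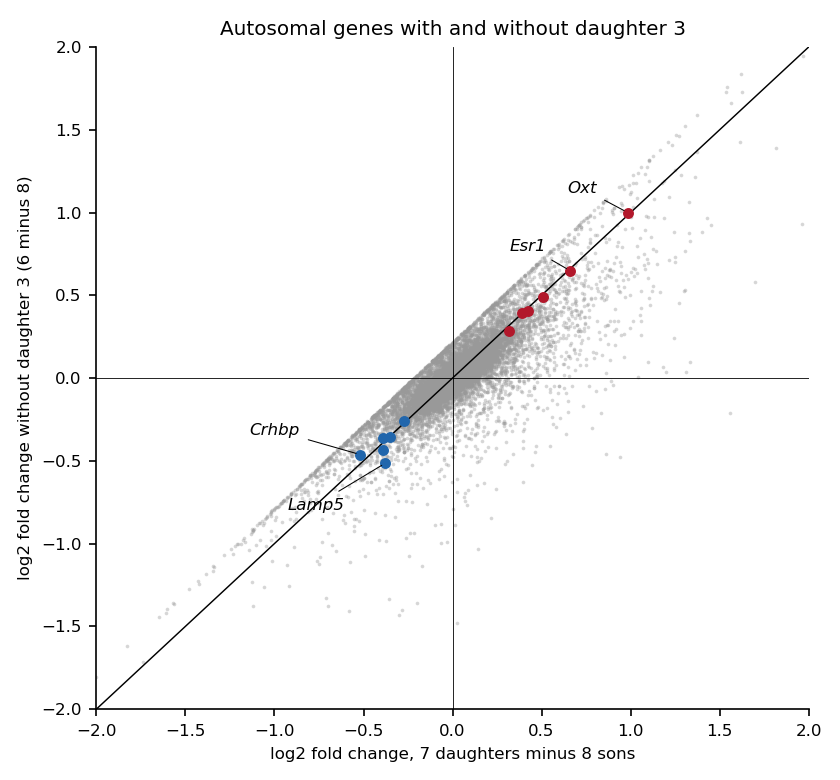
Log2 fold change of each autosomal gene, daughters minus sons of obesogenic dams, with all 7 daughters (x axis) and without daughter 3 (y axis); grey points are all genes tested in both, red and blue points the named genes higher and lower in daughters, and the diagonal marks equal values (4 of 16886 genes lie beyond the axis limit of 2). Oxt and Esr1 lie on the diagonal, at 0.98 and 0.66, and Lamp5 lies below it, at -0.38 with daughter 3 and -0.51 without.

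The daughters and sons of control dams gave a second reading of the same sex difference in other animals. In these groups 2 libraries, a daughter and a son, went against their sex label by Xist and Y-linked reads, so "the libraries labelled daughters and sons" is meant throughout, and a fit of the 29 libraries without those 2 is used for values. A fit of 26 libraries also leaves out daughter 3 and 2 control libraries that stand apart. In the fit of 29, 0 of 17909 autosomal genes passed (0%) and 921 had an unadjusted p under 0.05 (5.14%). With all 31 libraries 0 of 18069 passed (0%), with 786 under the unadjusted threshold (4.35%), and DESeq2 called 2, Emx1 and Adam12. Of the 10 leading genes of the obesogenic groups, 7 had the same direction in the fit of 29 (5 with 31 libraries and 6 with 26), and 1 also had an unadjusted p under 0.05. That gene was Cd59a, with a log2 fold change of 0.30 ± 0.11. In the fit of 26 it was 0.34 ± 0.11. Esr1 was 0.25 ± 0.34 in the fit of 29 and 0.42 ± 0.18 in that of 26, higher in daughters in both. Its unadjusted p from edgeR was 0.47 and 0.028 in these fits, and its adjusted p was 0.94 and 0.9997. Col4a1 was 0.13 ± 0.16 and -0.02 ± 0.11, and Tac1 was -0.38 ± 0.30 and -0.07 ± 0.098, so these values depended on the libraries in the fit.

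Some leading genes had estimates near 0 or on the other side in control offspring. C4b was -0.05 ± 0.14, Tfrc -0.01 ± 0.10 and Rbm34 -0.02 ± 0.091, and 0.03, -0.05 and 0.02 in the fit of 26. Serpini1 was 0.45 ± 0.20 in the fit of 29 and 0.0081 ± 0.10 in that of 26. Oxt was -0.14 ± 0.55 and 0.17 ± 0.37, so its direction turned between the fits. Over all 1084 genes with an unadjusted p under 0.05 in the obesogenic groups, 643 (59.3%) had the same sign in control offspring, against 55.2% of all 16886 genes, and 42 were under the unadjusted threshold with the same sign and 26 with the opposite one. In the fit of 26 the same sign was found in 516 (47.6%), against 46.8% of all genes. Over all autosomal genes, 49% were higher in control daughters in the fit of 29 and 50.8% in that of 26. Among lists, cholesterol synthesis was lower in 20 of 22 (median -0.13) in the fit of 29 and in 19 of 22 (-0.05) in that of 26. Collagens were higher in 17 of 23 in both (medians 0.15 and 0.12), and meningeal fibroblast markers in 15 and 17 of 18 (0.42 and 0.55). The inflammatory list was higher in 9 of 19 (-0.04) and in 15 of 19 (0.08), and the ependymal list was lower in 15 of 17 in both (-0.36 and -0.17).

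**Figure D5:**
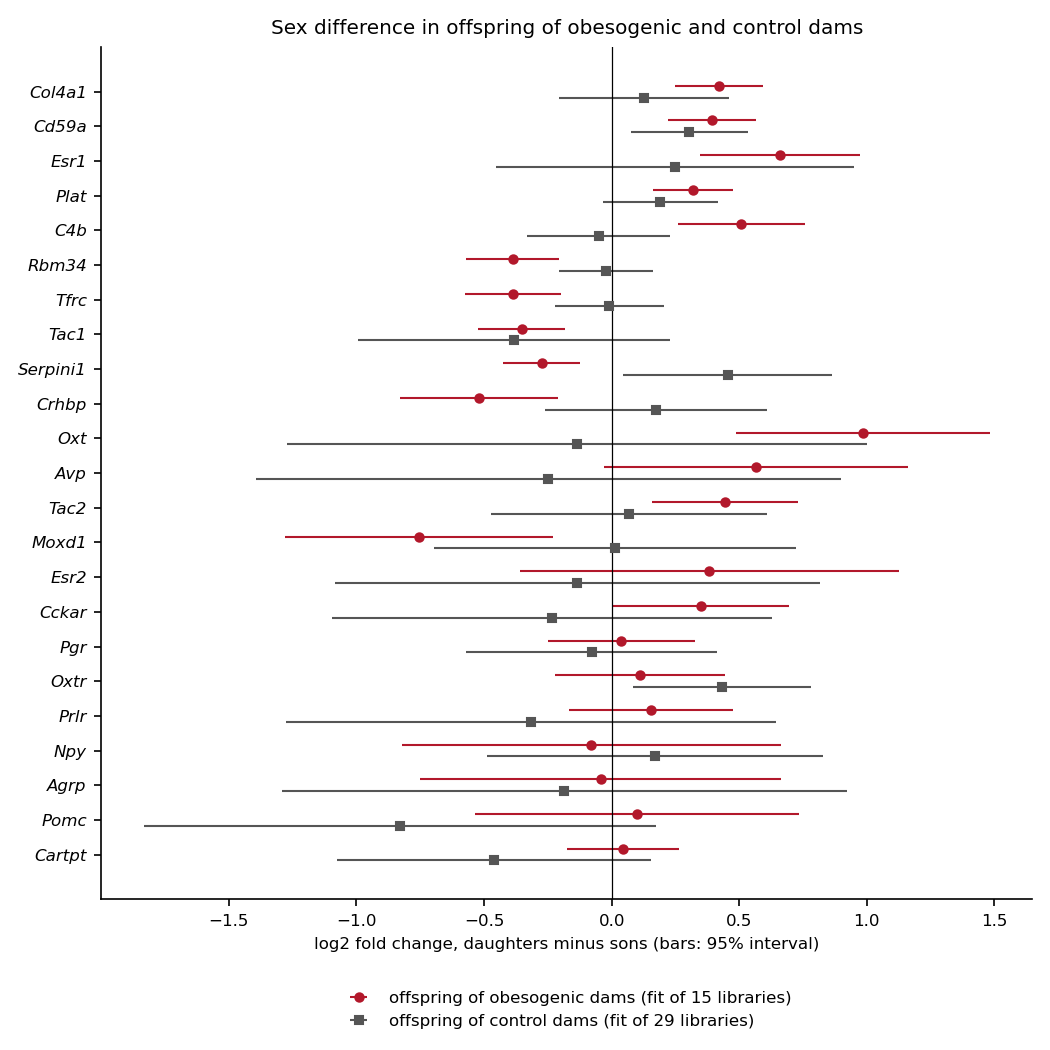
Log2 fold change, daughters minus sons (x axis), of 23 named genes in offspring of obesogenic dams (red circles, fit of 15 libraries) and of control dams (grey squares, fit of 29 libraries); bars are 95% intervals. Cd59a is on the same side of 0 in both with neither interval reaching 0, while C4b, Tfrc and Rbm34 sit near 0 in control offspring.

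The difference between the 2 sex contrasts, the interaction of sex and maternal diet, was tested directly. With all 31 libraries 0 of 18069 autosomal genes passed in edgeR (0%), 643 had an unadjusted p under 0.05 (3.56%), and DESeq2 called 1, Slc17a7. The leading genes were chosen on 1 of the 2 contrasts, so their interaction values are not an independent test. In the fit of 29 the difference was 0.56 ± 0.19 for C4b, -0.38 ± 0.15 for Tfrc and -0.37 ± 0.13 for Rbm34, and 0.08 ± 0.16 for Cd59a. For Oxt it was 1.12 ± 0.77. The genes of smallest p in the interaction were Slc17a7, Pycr1, Lgals3, Cdhr1 and Rnf115, and those in the control comparison included Adam12, Slc17a7, Cdhr1 and Doc2g. Slc17a7, a vesicular glutamate transporter gene of cortex, had a log2 difference of -9.76 ± 2.16 in the fit of 29 and -4.26 ± 1.39 in the fit of 26. The difference was -1.21 for Pycr1, an enzyme gene of proline synthesis, 1.56 for Lgals3, which encodes galectin-3, and -0.42 for Rnf115. Cdhr1, an olfactory bulb gene, moved from 4.97 to 0.20 in the control comparison between the same 2 fits and Doc2g from 5.21 to -0.03. In that fit of 26 the control comparison had 1 autosomal call of 18017 (0.00555%), Lamp5, at -0.81 (edgeR adjusted p = 1.1e-04). In the fit of 29 Lamp5 was 0.09 ± 0.34 in control offspring, so its direction turned between the fits. In the fit of 26, 2 autosomal genes passed in the obesogenic groups, both lower in daughters: Lamp5 at -0.52 (edgeR adjusted p = 0.048) and Tfrc at -0.44 (0.0435).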

How the data were processed

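The authors deposited raw counts of read pairs for each gene, not normalized. Per the file headers they were made with featureCounts 1.6.2 on Ensembl release 94, reverse strand, both ends mapped, mapping quality of at least 10. The submitters' processing notes name build mm10 with TopHat2 2.0.13, FastQC, edgeR and Subread. RNA came from the RNAqueous kit and libraries from TruSeq protocols, per the labels. Pairs that map to several genes are not counted by default, so genes with near copies are uncertain. No read length, instrument or batch is given in the sources used here.

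Groups were taken from the labels. All 31 columns were matched by title (0 columns unused), and 54409 of 54532 gene IDs were matched to symbols. A chi-square of counts over genes was at least 10.5 per degree of freedom for any pair of the 15 libraries, so none was treated as a repeat. Differences were tested with edgeR 4.0.16 in R 4.3.3 on the 15 libraries: filterByExpr, TMM, robust quasi-likelihood fits, Benjamini-Hochberg adjustment over all genes tested, threshold 0.05. Control offspring and the interaction were fitted with all 31 libraries, with 29 and with 26. Fold changes are log2 of daughters over sons; CPM were scaled by TMM, except in the checks of Xist, Y-linked, Pmch, Hcrt, Gh and Prl levels, and FPKM used the length in the file. Alternatives were DESeq2 1.42.0, limma 3.58.1 voom with quality weights, RLE factors, other filters, 2 surrogate variables (sva 3.50.0) and left-out libraries. Scripts were tested on simulated data.

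The comparison, its gene lists and the genes always named were chosen with earlier results of these data known. Named genes were the 5 of smallest p in each direction, without predicted models, 20 genes fixed by name, up to 4 members of smallest p of a described list, and the 5 of smallest p in the control comparison and the interaction. Some members that the rule names are not reported here. Genes of smallest p without daughter 3 were added after the data were seen. Promoters are RefSeq's (GRCm38.p6). Plat, C4b, Cckar and Agrp were not in that table.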

Additional observations from a re-analysis of the deposited data

Results flagged for a closer look

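Among 56 sets of values from single groups, 4 had a library set apart from the rest of its group by a gap too large a share of the group's range (Dixon's test at 95%). Chance gives about 1 in 20, so a few are to be expected. The sets share libraries and are not independent, so their count does not bear on any single library. In daughters, the gap was 0.695 of the range for Greb1, whose highest library, daughter 6, was at 10.6 CPM, and 0.596 for Pomc, at 267.5 CPM in the same daughter. Daughter 6 was also the highest daughter for Oxt, Avp, Tac2, Gal, Oxtr and Npy. The gap was 0.638 for the number of genes with reads and 0.835 for the median correlation with other libraries. Both were lowest in daughter 3, the library of low complexity that is left out in the second reading of many results.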

How the results depend on the processing

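The count of autosomal genes called in daughters against sons of obesogenic dams was 0 in the main analysis, with RLE factors, with no filter, with 1 CPM in 7 libraries, with adjustment over autosomes alone, and with all 31 or 29 libraries in 1 fit. It was 10 with DESeq2, 3 with limma voom, 2 with 2 surrogate variables, 2 without the 2 libraries with 2 numbers in the title and 0 to 1 with each library left out (1 without daughter 5, Col4a1). Chosen after seeing the data, a fit of 26 libraries gave 2, DESeq2 without daughter 3 gave 12 and limma voom without daughter 3 gave 0. Control offspring gave 0, or 1 without the 5 libraries in doubt and 2 with DESeq2, and the interaction gave 0, or 1 with DESeq2. The cause of these differences was not tested. Of 26 named genes, 17 kept their direction in all alternatives and 9 with estimates near 0 did not. With each library left out in turn, log2 fold changes ran from -0.031 to 0.13 for Pgr, -0.36 to 0.12 for Greb1, -0.042 to 0.19 for Oxtr, -0.11 to 0.066 for Ecel1, -0.28 to 0.071 for Npy, -0.30 to 0.10 for Agrp, -0.21 to 0.23 for Pomc and -0.018 to 0.092 for Cartpt. Without the libraries with 2 numbers, Greb1 was 0.11, Gal 0.010 and Npy 0.038. With limma voom, Ecel1 was -0.024, Pomc -0.096 and Cartpt -0.0072; without daughter 3 as well, Ecel1 was -0.019 and Pomc -0.11. With 2 surrogate variables Pomc was -0.0013. No paired analysis was possible because the labels carry no replicate numbers shared between the groups. With 7 and 8 libraries the median interval of 0.25 to either side describes a single gene, without adjustment for the number of genes tested. It is not the size of a sex difference that could be called. Larger log2 fold changes missed the adjusted threshold in the main analysis, among them 0.51 for C4b, 0.66 for Esr1 and 0.98 for Oxt. The smallest difference that could pass was not estimated, and a p that misses the threshold does not show that the sexes are alike.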
